A study of Mus musculus with 9 samples.

Results

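Kinesins are motor proteins that walk along microtubules or take them apart, and their genes were followed here in the cerebellum of mice prone to medulloblastoma. The 36 genes were taken by name: every gene of the array's annotation whose mouse symbol starts with Kif and a digit, or with Kifc. They are covered by 78 array features, out of 19087 named genes and 45220 features in all. Total RNA came from cerebella at postnatal day 20, and all mice carried SmoA1, an activated form of Smoothened that switches on Hedgehog signalling. In 5 samples Pycard, the gene of the inflammasome adaptor ASC, was wild-type, and in 4 it was knocked out. Each sample was hybridised in Cy5 against 1 common reference in Cy3, a pool of cerebella from wild-type mice at postnatal day 16. Every value below is thus a ratio of sample over that pool, read as log2, and not a level. The sources used here do not name the promoter that drives SmoA1 or the kind of Pycard allele, nor do they say that each array is a separate animal. The p-values therefore rest on the spread among these 9 samples, and that spread may be technical.

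Some kinesins work while a cell divides: they build the spindle, move chromosomes and finish the separation of the daughter cells. Division need not be their only role. Others carry vesicles, organelles and receptors along axons and dendrites of cells that no longer divide, and a further set builds or moves cilia. In the young cerebellum both kinds of cell lie side by side, because granule neuron progenitors divide in the outer layer under Hedgehog signals and then leave the cycle, migrate inward and mature. The 36 genes were sorted by these roles into 12 mitotic kinesins, 12 kinesins of axonal and dendritic transport, 5 of endosomes and other vesicles, 5 of cilia, and 2 others. In tissue samples of this kind, fewer cells of a type and less RNA per cell cannot be told apart.

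Pycard had log2 ratios of 0.90, 1.17, 0.72, 1.28 and 1.32 on wild-type arrays 1 to 5 and -2.83, -2.43, -1.48 and -2.83 on knockout arrays 1 to 4. All knockout arrays lay below all wild-type arrays, with a difference of -3.47 (limma adjusted p = 0.0131). Of 30654 values tested between the genotypes, 5 passed an adjusted p of 0.05, which is 0.0163%, and 0 passed with replicate number as a block, where Pycard did not pass either. None of the 36 kinesins was among them. Array titles are letters on 6 arrays (3 of each genotype) and numbers on 3 (wild-type 4 and 5 and knockout 4), and the number-titled values lay all above the letter-titled ones in 9.21% of all features and all below them in 10.7%. The mitotic median and counts of calls are therefore also given within each title style. Differences of single members within a style are given only where their direction changed. Proliferation markers were higher than the pool, and markers of Purkinje cells and oligodendrocytes lower, on all arrays as list means.

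The mitotic and the transport kinesins stood apart on every array. The mean over the 12 mitotic genes was 2.15, 2.52, 2.29, 2.74 and 2.46 on wild-type arrays 1 to 5 and 0.65, 1.87, 2.23 and 1.47 on knockout arrays 1 to 4. Over the 12 transport genes it was -0.19, -0.26, -0.18, -0.53 and -0.23 on wild-type arrays 1 to 5 and -0.23, -0.17, -0.31 and -0.36 on knockout arrays 1 to 4. The mitotic class mean was thus above the pool on all 9 arrays and the transport class mean slightly below it on all 9, which does not hold for every member: Kif2b was below the pool on wild-type 5 and knockout 1, and Kif21b above it on every array. The gap between the classes averaged 2.71 ± 0.36 over wild-type arrays (SD, n = 5) and 1.82 ± 0.69 over knockout arrays (SD, n = 4). The gap was thus -0.89 in knockout relative to wild-type, and -0.58 without knockout 1. It ranged from 2.34 to 3.28 in wild-type and from 0.88 on knockout 1 to 2.54 on knockout 3, so the genotypes overlapped. These class values are descriptions, with no test.

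**Figure D1:**
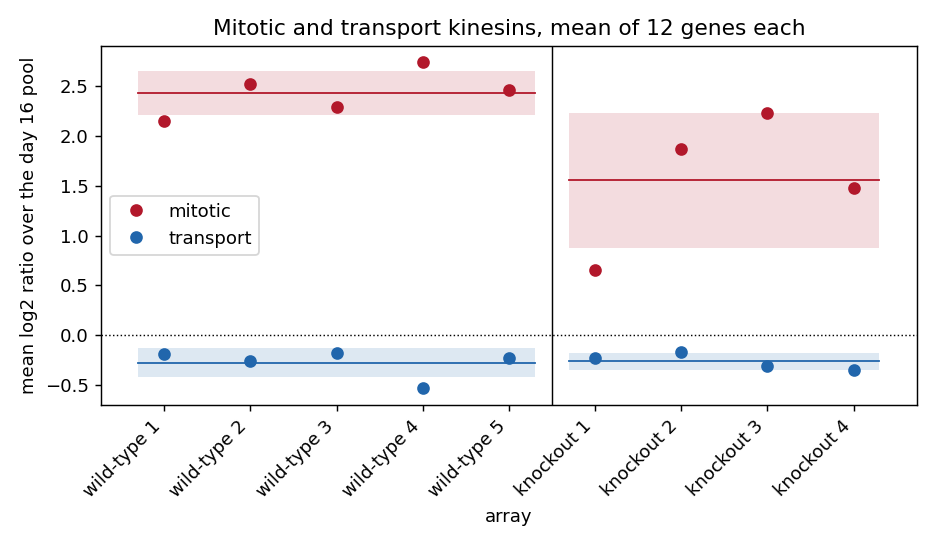
Mean log2 ratio over the day 16 pool (vertical axis) on each of the 9 arrays (horizontal axis) for the 12 mitotic kinesins in red and the 12 transport kinesins in blue, with the group mean as a line and 1 SD as a band. Mitotic means lie between 2.15 and 2.74 in wild-type and between 0.65 and 2.23 in knockout, while transport means stay between -0.53 and -0.17.

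Against the pool, 10 kinesins passed an adjusted p of 0.05 with a wild-type mean of at least 1, and all 10 were mitotic: Kif2c, Kif4, Kif11, Kif15, Kif18b, Kif20a, Kif20b, Kif22, Kif23 and Kifc5b. Over all values tested, 3.73% passed in this direction. In the knockout samples 8 of these 10 passed as well (1.58% of all values), the exceptions being Kif11 (adjusted p = 0.0565) and Kif20b (adjusted p = 0.0901). Kif17 and Kif9 were lower than the pool in wild-type by the same criteria (1.79% of all values), but only 1 of them without wild-type 4, and no kinesin was in knockout (0.398%). Both sets of samples were read against the same pool, whose own spread is not in these tests. The pool's day and its lack of SmoA1 differ from the samples together and cannot be told apart, nor can any difference in mouse strain. These p-values come from limma with Benjamini-Hochberg adjustment over all 30654 values.

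**Figure D2:**
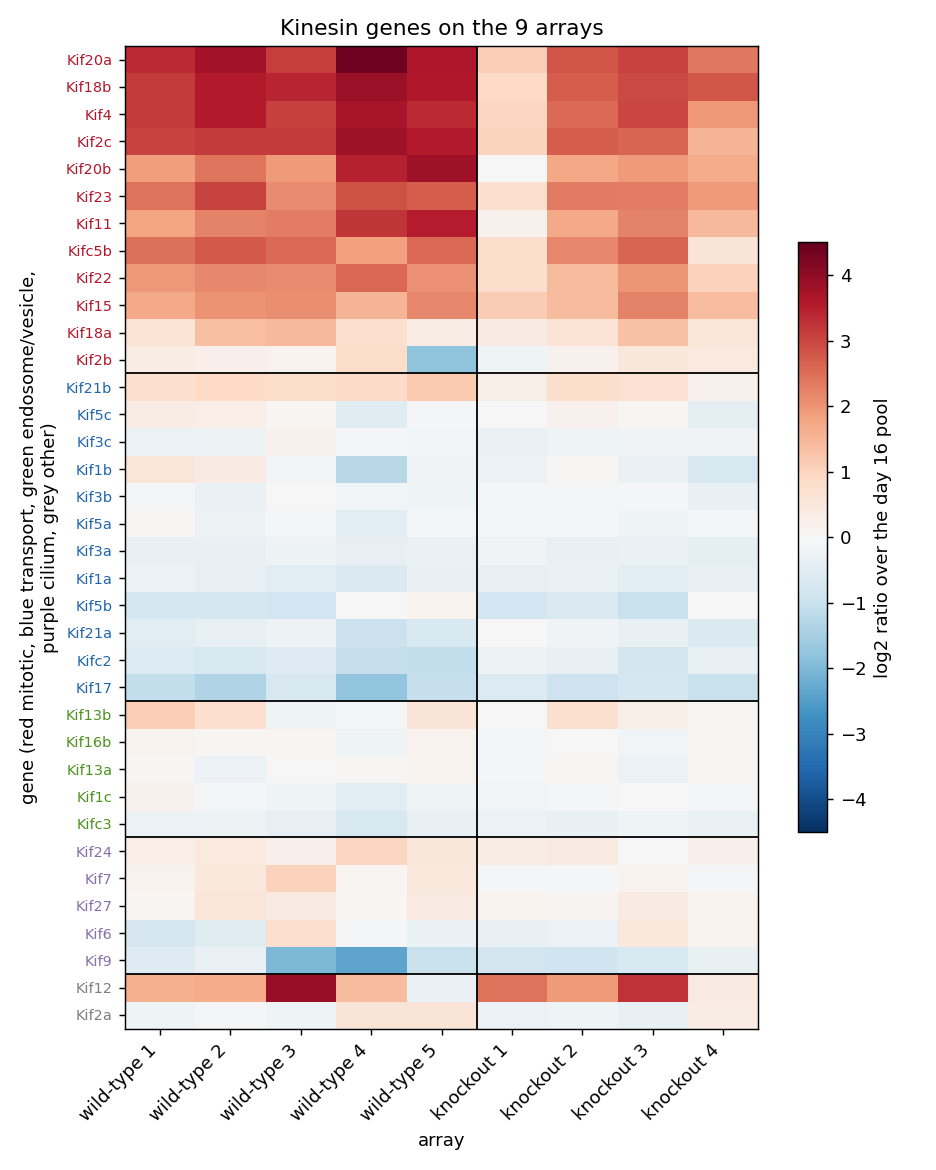
Log2 ratio over the day 16 pool, as colour from -4.5 to 4.5, for the 36 kinesin genes (vertical axis, name colour gives the class) on the 9 arrays (horizontal axis), sorted within each class by the wild-type mean. The 10 upper mitotic rows are red on all wild-type arrays, and Kif20b on knockout 1 is close to white at 0.018.

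Between the genotypes, 11 of the 12 mitotic kinesins had lower means in knockout and Kif2b a higher one, and none passed (smallest limma adjusted p = 0.917). The median difference was -1.04, beside -0.0026 over all named genes, of which 50.5% were lower. At an unadjusted p under 0.05, 8 mitotic genes were lower, as were Kif21b and Kif7, where 3.31% of all values were. No kinesin was higher at that level (2.09% of all values). In Kif2c, Kif4, Kif18b and Kif20a every knockout array lay below every wild-type array, as in 0.946% of all values, and in no kinesin did every knockout array lie above every wild-type array (0.796%). The transport class split evenly, with 6 members lower and 6 higher and a median difference of 0.010. Without knockout 1 the mitotic median was -0.69, and after quantile normalization -0.64. Within letter-titled arrays it was -0.74, and within number-titled arrays -1.43.

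**Figure D3:**
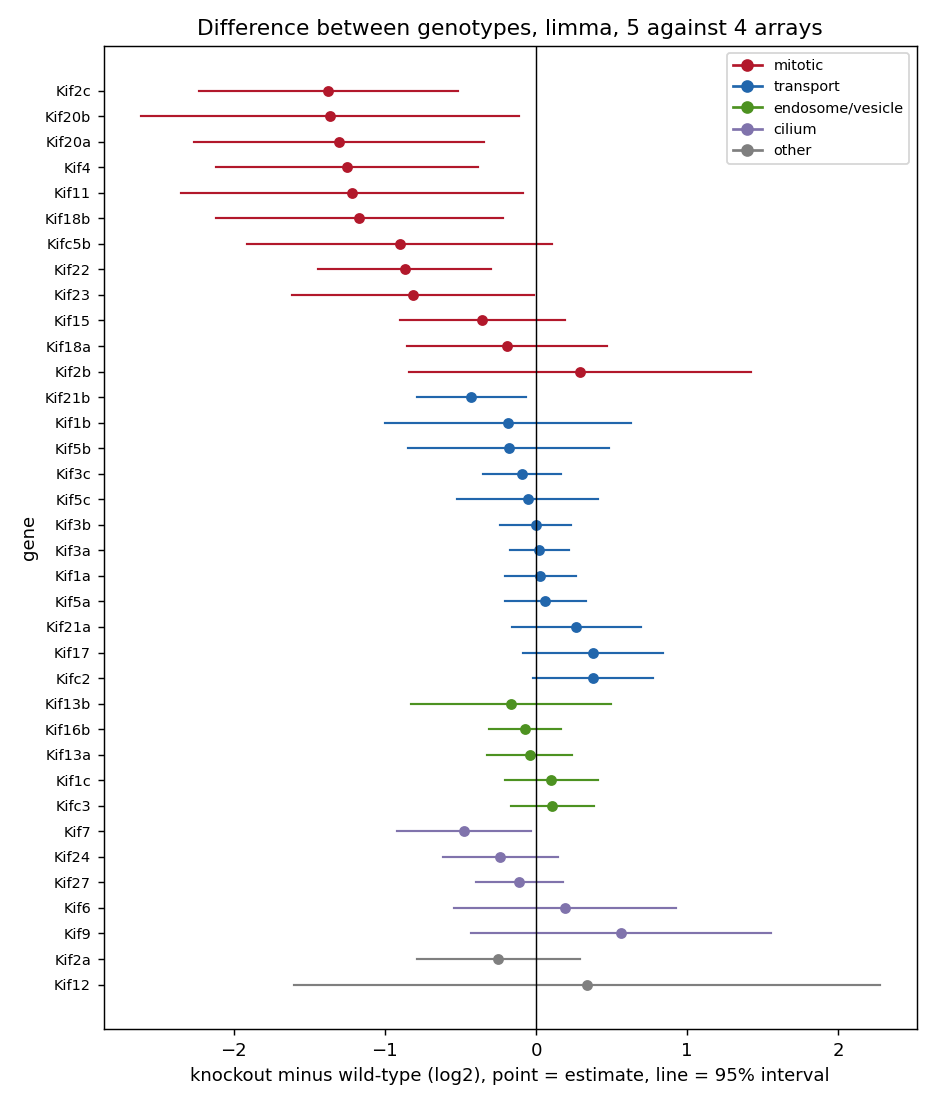
Knockout minus wild-type on the log2 scale (horizontal axis) for each kinesin (vertical axis), with the limma estimate as a point and its 95% interval as a line, coloured by class. The intervals of 8 mitotic members lie below 0, while 11 of 12 transport intervals span it.

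Motors that act on chromosomes and spindle ends had high ratios. Kif2c, which takes microtubules apart at centromeres, had log2 ratios of 3.03, 3.15, 3.15, 3.80 and 3.57 on wild-type arrays 1 to 5 and 1.003, 2.72, 2.61 and 1.53 on knockout arrays 1 to 4. Its wild-type mean of 3.34 ± 0.33 (SD, n = 5) is 10.1 times the pool, and the knockout mean was 1.97 ± 0.84 (SD, n = 4). The 2 groups did not overlap, and knockout 1 and 4 were the lowest. The difference of -1.37 (SE 0.375, 95% interval -2.23 to -0.51) had the smallest unadjusted p among the kinesins, 0.00588, with limma adjusted p = 0.917.

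Kif18b, a kinesin-8 that shortens microtubules at their plus ends, had values of 3.14, 3.58, 3.43, 3.89 and 3.59 on wild-type arrays 1 to 5 and 0.91, 2.73, 2.98 and 2.81 on knockout arrays 1 to 4. The knockout arrays were all lower, and knockout 1 stood far below the other 3. The difference was -1.17 (SE 0.415, 95% interval -2.12 to -0.22), with limma adjusted p = 0.917. Its relative Kif18a, which damps the movements of chromosomes at the metaphase plate, had 0.60, 1.36, 1.45, 0.77 and 0.32 on wild-type arrays 1 to 5 and 0.37, 0.61, 1.31 and 0.53 on knockout arrays 1 to 4. The groups overlapped widely, with a difference of -0.19, and its wild-type mean of 0.90 passed the adjusted p against the pool (0.0105) but not the minimum of 1. Its pair of features disagreed. Feature 9385 had a wild-type mean of 2.06 and a difference of -0.98, while feature 34775 had -0.26 and 0.59.

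Chromokinesins bind chromosome arms and push them along the spindle. Kif4 had values of 3.16, 3.58, 3.08, 3.71 and 3.35 on wild-type arrays 1 to 5 and 0.98, 2.56, 3.01 and 1.95 on knockout arrays 1 to 4. All knockout arrays lay below all wild-type arrays, knockout 3 only just, and the difference was -1.25 (SE 0.379, 95% interval -2.12 to -0.38). Kif22 had 1.95, 2.16, 2.12, 2.60 and 2.06 on wild-type arrays 1 to 5 and 0.78, 1.43, 1.99 and 1.04 on knockout arrays 1 to 4. Knockout 3 lay above wild-type 1, and the other knockout arrays lay below every wild-type array. The difference was -0.87 (SE 0.25, 95% interval -1.44 to -0.30), with limma adjusted p = 0.917. Kif22 lies on chromosome 7 with 42 measured genes between it and Pycard, and the called genes Gdpd3 and Slx1b lie on its far side from Pycard, 19 and 22 measured genes away. Without Kif22 the mitotic median was -1.17. A feature that also binds RNA of the pseudogenes Kif22-ps or Kif4-ps could not be told apart here.

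Motors that space and bind the spindle poles came next. Kif11, which slides antiparallel microtubules apart so that the spindle has 2 poles, had 1.78, 2.24, 2.29, 3.22 and 3.55 on wild-type arrays 1 to 5 and 0.18, 1.71, 2.24 and 1.46 on knockout arrays 1 to 4. Wild-type 4 and 5 were the highest, and the groups overlapped. Its wild-type mean was 2.10 on letter-titled arrays and 3.38 on number-titled ones. The difference was -1.22 (SE 0.494, 95% interval -2.34 to -0.088), with limma adjusted p = 0.917. Kif15, which can help keep the poles apart beside Kif11, had 1.69, 2.01, 2.09, 1.54 and 2.17 on wild-type arrays 1 to 5 and 1.14, 1.41, 2.24 and 1.39 on knockout arrays 1 to 4. Knockout 3 was the highest of all 9 arrays, the groups overlapped, and the difference was -0.35. Of its 3 features, 35665 and 41289 had wild-type means of 3.66 and 2.22 and differences of -1.12 and -0.61, while feature 7767 was exactly 0 on 4 arrays, highest on knockout 1, and differed by 0.67. Kifc5b, a minus-end-directed motor closely related to Kifc1, had 2.47, 2.77, 2.54, 1.84 and 2.56 on wild-type arrays 1 to 5 and 0.78, 2.16, 2.62 and 0.58 on knockout arrays 1 to 4. Knockout 1 and 4 were the lowest and knockout 3 was above 4 of the 5 wild-type arrays. The difference was -0.90 (SE 0.441, 95% interval -1.91 to 0.11). RNA of its near copy Kifc1, which is not analysed here, may bind the same features.

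Motors of the midzone and of cytokinesis carry the cell through its final cut. Kif20a, which brings the Aurora B complex to the midzone, had 3.35, 3.78, 3.10, 4.36 and 3.62 on wild-type arrays 1 to 5 and 1.10, 2.82, 3.05 and 2.38 on knockout arrays 1 to 4. This was the highest ratio of the family in wild-type, 12.5 times the pool on average, and the groups did not overlap. The difference was -1.30 (SE 0.419, 95% interval -2.26 to -0.35), a ratio 2.47 times lower in knockout, with limma adjusted p = 0.917. Kif20b, which acts late in cytokinesis, had 1.88, 2.40, 1.93, 3.45 and 3.82 on wild-type arrays 1 to 5 and 0.018, 1.73, 1.92 and 1.67 on knockout arrays 1 to 4. Knockout 1 was at the level of the pool, knockout 3 just reached the wild-type range, and wild-type 4 and 5 were far above the other wild-type arrays. The wild-type mean of Kif20b was 2.07 on letter-titled arrays and 3.64 on number-titled ones. The difference over all arrays was -1.36 (SE 0.548, 95% interval -2.61 to -0.11). Kif23, the motor of the centralspindlin complex, had 2.45, 3.04, 2.12, 2.88 and 2.73 on wild-type arrays 1 to 5 and 0.75, 2.35, 2.29 and 1.92 on knockout arrays 1 to 4. Knockout 1 stood far below the wild-type range, knockout 4 slightly below it and the other 2 inside it, and the difference was -0.81 (SE 0.35, 95% interval -1.62 to -0.014). Kif2b, a relative of Kif2c that corrects faulty attachments of chromosomes, differed in sign from the other 11. Its values were 0.33, 0.23, 0.17, 0.84 and -1.82 on wild-type arrays 1 to 5 and -0.19, 0.20, 0.51 and 0.43 on knockout arrays 1 to 4. It sat near the pool except on wild-type 5, and its difference of 0.29 was -0.15 with replicate number as a block.

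Samples of the 2 genotypes share replicate numbers 1 to 4. Within these numbered pairs the mitotic mean differed by -1.50, -0.65, -0.058 and -1.27, so it was lower in knockout in all 4, least in the third. All 12 mitotic genes were lower in pairs 1, 2 and 4, and 8 of 12 in pair 3. Knockout 1 had the lowest of 9 values in 9 mitotic genes, and knockout 3 had the highest knockout value in 10. Of the 24 mitotic features 21 had lower means in knockout.

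Proliferation markers put the arrays of each genotype in the same order as the mitotic kinesins. The 10 measured proliferation markers, which include Mki67 and Top2a, had list means of 2.49, 2.70, 2.55, 3.08 and 2.65 on wild-type arrays 1 to 5 and 0.76, 2.08, 2.37 and 1.50 on knockout arrays 1 to 4. The range was 2.49 to 3.08 in wild-type and 0.76 to 2.37 in knockout, and all 10 were lower in knockout with none past the threshold. Mybl2, a transcription factor of the cell cycle, differed by -0.95 and Top2a, the topoisomerase of condensing chromosomes, by -1.40. Of 12 markers of granule neuron progenitors 11 were lower, with list means of 1.36 to 1.83 in wild-type and 0.25 to 1.41 in knockout. Mycn, a Hedgehog target, differed by -1.17 and the progenitor factor Barhl1 by -0.60. All 6 measured microglia markers had lower means too (Aif1 -0.74, Cx3cr1 -0.53), with list means of 0.39 to 0.97 in wild-type and -0.34 to 0.65 in knockout. In numbered pairs 1 to 4 the microglia list differed by -0.86, -0.89, 0.26 and -0.027. The proliferation list differed by -1.73, -0.62, -0.19 and -1.58 in the same pairs, so the arrays did not follow the same order. The part of these cells in the kinesin differences was not tested.

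Partners that work with the mitotic kinesins on the spindle and midzone were described from a list of 24 genes, 23 of them measured. In wild-type 20 of 23 were higher than the pool by the criteria above (3.73% of all values), and in knockout 14 (1.58% of all values). The list averaged 2.70 ± 0.41 over wild-type arrays (SD, n = 5) and 1.59 ± 0.72 over knockout arrays (SD, n = 4), and 21 genes were lower in knockout with a median of -1.26 and none past the threshold. Plk1, a kinase that starts and ends mitosis, differed by -1.19 (SE 0.327, 95% interval -1.94 to -0.45). Cenpe, the kinesin of the kinetochore whose name keeps it out of the family list, had 2.78, 3.16, 3.23, 4.33 and 4.06 on wild-type arrays 1 to 5 and 0.44, 2.30, 2.75 and 1.96 on knockout arrays 1 to 4. Its groups did not overlap, and knockout 1 was lowest. The difference was -1.65 (SE 0.507, 95% interval -2.81 to -0.49), with limma adjusted p = 0.917.

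The promoters of the kinesins were searched for short motifs of cell-cycle genes. Cell-cycle genes of late phases often carry a cell cycle homology region next to the transcription start, at which a repressor complex acts in resting cells, and a CCAAT box upstream of it, which the factor NF-Y binds. RefSeq promoter windows (GRCm38.p6, 250 bases before to 50 after the start) were found for 29 of the 36 genes, the first listed window being used. None was found for Kif20a, the mitotic member with the highest wild-type mean, or for Kif5a, Kif5b, Kif21b and Kifc2 of transport. Kif13b and Kifc3 had none either. Each window was searched on both strands for CCAAT and for TTTGAA, the core of the homology region. The latter was in 9 of 11 mitotic windows, in 1 of 5 cilium windows, in 0 of 8 transport windows and in 18.1% of 27025 windows, 1 for each gene of the table. CCAAT was in 7 of 11 mitotic windows (63.6%), 3 of 5 cilium windows (60%), 3 of 8 transport windows and 37.9% of all, so the mitotic share was close to that of the cilium kinesins. Both occurred in 6 of 11 mitotic windows, 1 of 5 cilium windows, 0 of 8 transport windows and 7.12% of all. The E2F core GCGGGAA was in 0 of 11 mitotic windows (4.66% of all) and TATAAA in 1 (14.2% of all).

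A shorter stretch next to the start site was searched as well. In the 100 bases from 70 before to 30 after the start, a stretch chosen after the windows were seen, TTTGAA was in 7 of 11 mitotic windows and in 5.1% of all, and both motifs were in 5 of 11 and in 0.892% of all. The stretches of these 7 genes are printed because they hold TTTGAA, and not for the size of their ratios, 5′ to 3′ on the gene's strand, with CCAAT or its reverse ATTGG and TTTGAA or its reverse TTCAAA in capitals. The 2 motifs overlapped in none of them.
Kif11: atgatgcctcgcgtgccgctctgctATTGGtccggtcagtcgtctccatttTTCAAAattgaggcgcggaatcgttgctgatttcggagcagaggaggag
Kif15: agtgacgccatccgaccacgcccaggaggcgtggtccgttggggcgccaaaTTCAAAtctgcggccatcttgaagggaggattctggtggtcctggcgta
Kif18b: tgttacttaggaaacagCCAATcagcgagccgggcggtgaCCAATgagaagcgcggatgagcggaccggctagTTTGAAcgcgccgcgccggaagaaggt
Kif20b: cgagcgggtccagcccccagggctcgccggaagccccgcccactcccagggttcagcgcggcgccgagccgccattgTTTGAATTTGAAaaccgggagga
Kif22: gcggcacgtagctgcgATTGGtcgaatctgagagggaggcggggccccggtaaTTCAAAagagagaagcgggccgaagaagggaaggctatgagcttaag
Kif23: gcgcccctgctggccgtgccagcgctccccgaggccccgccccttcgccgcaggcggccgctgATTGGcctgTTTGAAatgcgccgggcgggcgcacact
Kif4: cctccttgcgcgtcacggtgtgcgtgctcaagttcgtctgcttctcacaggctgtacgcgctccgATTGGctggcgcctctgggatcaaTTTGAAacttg
They lie at chr19:37376312-37376411 (plus strand) for Kif11, chr9:122951011-122951110 (plus strand) for Kif15, chr11:102925095-102925194 (minus strand) for Kif18b, chr19:34922288-34922387 (plus strand) for Kif20b, chr7:127042391-127042490 (minus strand) for Kif22, chr9:61946770-61946869 (minus strand) for Kif23 and chrX:100625995-100626094 (plus strand) for Kif4.

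In Kif11, Kif15 and Kif22 the TTTGAA core reads on the reverse strand, with its first base -19, -19 and -17 from the start, and in Kif18b, Kif20b, Kif23 and Kif4 it reads forward and begins between 3 and 20 bases after it. Kif18b has a pair of CCAAT boxes at -53 and -30, and Kif20b a pair of TTTGAA cores end to end at 8 and 14. Of the mitotic genes without TTTGAA in this stretch, Kif2c has it at -103 and Kifc5b at 30, and neither Kif18a nor Kif2b has it in the window. Kif18a and Kif2b are also the 2 mitotic members with wild-type means under 1, but Kif18a averages features at 2.06 and -0.26. Kif27, a cilium kinesin, has TTTGAA in its window and a wild-type mean of 0.31. A link between motif and ratio was not tested. For comparison, the same stretch of 2 transport kinesins is shown, of which Kif3a holds a CCAAT box in reverse and Kif1a neither motif.
Kif3a: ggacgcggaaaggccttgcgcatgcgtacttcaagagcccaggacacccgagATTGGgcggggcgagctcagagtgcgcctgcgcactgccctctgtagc
Kif1a: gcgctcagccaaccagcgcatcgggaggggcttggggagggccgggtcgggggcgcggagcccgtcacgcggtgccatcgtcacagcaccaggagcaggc
These lie at chr11:53567299-53567398 (plus strand) and chr1:93101845-93101944 (minus strand). A match is a description of letters and not of binding, and a window without one says only that these letters are not in it.

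The transport kinesins kept close to the pool, with wild-type means from -1.20 in Kif17 to 0.90 in Kif21b. At an adjusted p of 0.05 with no minimum, 5 were lower than the pool in wild-type (Kif1a, Kif3a, Kif17, Kif21a and Kifc2) and Kif21b was higher, where 12.1% and 12.9% of all values passed. Only Kif17 reached the minimum of 1. None of the 12 passed between the genotypes. The 95% interval of the difference lay within 0.5 of 0 for 5 members and within 1 for all 12.

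Kif21b, a slow motor of dendrites and axons that also limits microtubule growth, was the exception in direction. It had 0.75, 0.89, 0.82, 0.86 and 1.19 on wild-type arrays 1 to 5 and 0.25, 0.77, 0.68 and 0.20 on knockout arrays 1 to 4. Knockout 2 overlapped the wild-type range, knockout 1 and 4 were clearly below it, and each of its 3 features had a mean above the pool in both genotypes. The wild-type mean was 0.90 ± 0.17 (SD, n = 5), 1.87 times the pool (limma adjusted p = 0.000687). The difference of -0.43 (SE 0.158, 95% interval -0.79 to -0.066) had an unadjusted p = 0.0258 and limma adjusted p = 0.917, and no other transport member was lower in every numbered pair. Its paralogue Kif21a had -0.46, -0.39, -0.23, -0.96 and -0.70 on wild-type arrays 1 to 5 and -0.00067, -0.14, -0.33 and -0.65 on knockout arrays 1 to 4. The number-titled arrays were the lowest in both genotypes, the groups overlapped, and the difference was 0.27 (SE 0.187, 95% interval -0.16 to 0.69).

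Kif17, which carries NMDA receptor subunits in dendrites, had -1.11, -1.36, -0.73, -1.76 and -1.05 on wild-type arrays 1 to 5 and -0.63, -0.94, -0.74 and -0.998 on knockout arrays 1 to 4. All 9 arrays were below the pool, and the groups overlapped. Its wild-type mean of -1.20 ± 0.38 (SD, n = 5) passed against the pool (limma adjusted p = 0.000591), its knockout mean was -0.83 ± 0.17 (SD, n = 4), and the difference was 0.37 (SE 0.203, 95% interval -0.089 to 0.84). Kifc2, a C-terminal motor found in neurons, had -0.61, -0.72, -0.57, -1.03 and -1.12 on wild-type arrays 1 to 5 and -0.24, -0.34, -0.83 and -0.32 on knockout arrays 1 to 4. Again all arrays were below the pool, 3 knockout arrays were above every wild-type array, and knockout 3 was not. The difference was 0.38 (SE 0.174, 95% interval -0.021 to 0.78), with limma adjusted p = 0.917.

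**Figure D4:**
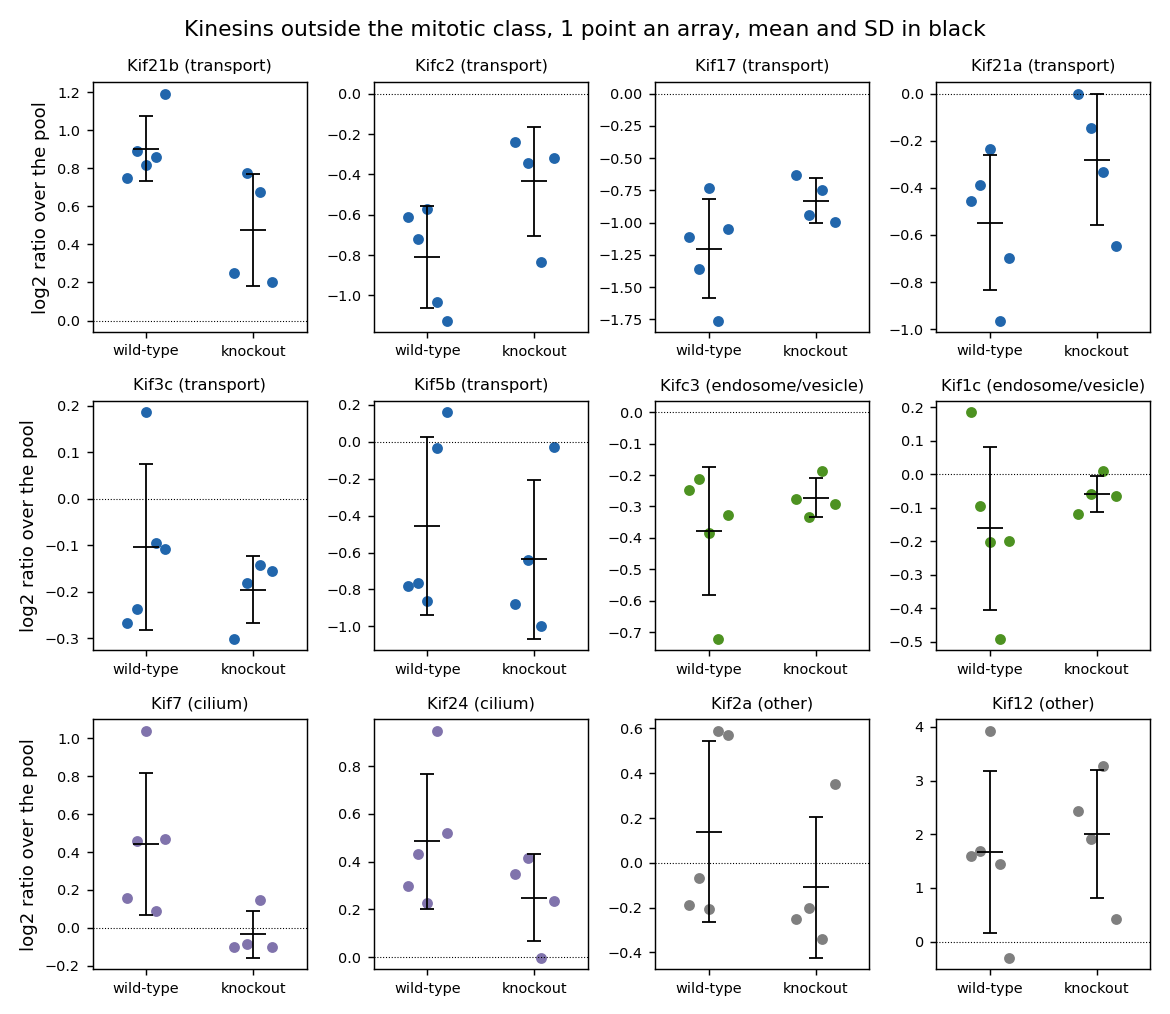
Log2 ratio over the day 16 pool (vertical axis, own scale in each panel) for 12 kinesins outside the mitotic class, with 1 point for each array and the mean ± 1 SD in black, wild-type left and knockout right. Kif21b is above 0 and Kif17 below 0 on all 9 arrays, and in Kif7 the 4 knockout arrays lie between -0.10 and 0.15.

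The kinesin-1 heavy chains Kif5a, Kif5b and Kif5c, which move mitochondria, vesicles and protein complexes outward along axons, had wild-type means of -0.16, -0.46 and 0.019. Their differences were 0.062 (SE 0.118, 95% interval -0.21 to 0.33) for Kif5a, -0.18 for Kif5b and -0.056 for Kif5c. Kif5b had -0.78, -0.76, -0.86, -0.032 and 0.16 on wild-type arrays 1 to 5 and -0.88, -0.64, -0.999 and -0.029 on knockout arrays 1 to 4. It divided by title style and not by genotype: letter-titled arrays lay between -0.999 and -0.64 and number-titled ones between -0.032 and 0.16. That split came from feature 19392, with -1.23, -1.13, -1.07, 0.65 and 0.28 in wild-type and -1.49, -1.09, -1.46 and 0.17 in knockout, whereas feature 17571 did not separate the styles.

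Kif3a, Kif3b and Kif3c form kinesin-2, the heterodimeric motor of axonal transport, of which the first 2 also drive transport inside cilia. Kif3c had -0.27, -0.24, 0.19, -0.096 and -0.11 on wild-type arrays 1 to 5 and -0.30, -0.18, -0.14 and -0.16 on knockout arrays 1 to 4. Wild-type 3 was the only array above the pool, and the groups overlapped with a difference of -0.091 (SE 0.113, 95% interval -0.35 to 0.17). Kif3a was below the pool on all 9 arrays, with a wild-type mean of -0.32 ± 0.058 (SD, n = 5), and differed by 0.022 (SE 0.0843, 95% interval -0.17 to 0.22). Kif3b was at -0.14 ± 0.11 (SD, n = 5) in wild-type and differed by -0.0019 (SE 0.103, 95% interval -0.24 to 0.23). The kinesin-3 motors Kif1a and Kif1b carry synaptic vesicle precursors. Kif1a was below the pool on all arrays, at -0.42 ± 0.14 (SD, n = 5) in wild-type, and differed by 0.029 (SE 0.102, 95% interval -0.20 to 0.26). Kif1b ranged from -1.24 on wild-type 4 to 0.56 on wild-type 1, with a difference of -0.18, and its feature 36868 differed by -1.04 (unadjusted p = 0.0538) while the other 3 lay between -0.10 and 0.31.

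Cargo adaptors and the return motor were close to the pool as well. Of 20 measured partners of transport kinesins, among them light chains and the Trak and Rhot proteins that tether mitochondria, 17 were higher in knockout with a median of 0.10 and none past the threshold. Kifap3, the third subunit of kinesin-2, differed by 0.22 and Mapk8ip2, a scaffold that binds kinesin-1, by 0.18. Cytoplasmic dynein and dynactin, which carry cargo inward, had 12 of 20 measured genes higher and a median of 0.031. The dynactin subunit Dctn5 had -0.30, -0.14, 0.026, 0.45 and 0.14 on wild-type arrays 1 to 5 and -1.21, -0.57, -0.46 and -1.14 on knockout arrays 1 to 4. Its groups did not overlap, and the difference was -0.88 (SE 0.215, 95% interval -1.37 to -0.39) with limma adjusted p = 0.917. Dctn5 also lies on chromosome 7, with 101 measured genes between it and Pycard. Dctn6 differed by 0.22.

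Markers of mature cells are given beside the transport kinesins, since these motors were sorted by a role in axons and dendrites, which need not be their only one. All 10 genes listed as granule neuron markers, which need not be particular to these neurons, had higher means in knockout (Calb2 0.33, Vamp2 0.21). Their list means ran from -0.48 to -0.23 in wild-type and from -0.38 to 0.14 in knockout. All 6 Purkinje cell markers were higher, from -1.13 to -0.73 in wild-type and from -1.04 to -0.034 in knockout (Pvalb 0.68, Pcp2 0.54). Of 9 oligodendrocyte markers 8 were higher, from -1.54 to -0.999 and from -0.91 to -0.60 (Opalin 0.68, Mag 0.52). Astrocyte and Bergmann glia markers were mixed, 5 of 8 higher (Gdf10 0.81, Hopx 0.22) and 3 lower (Aqp4 -0.25, Gfap -0.13, Slc1a2 -0.027). Their list means ran from -0.83 to -0.44 in wild-type and from -0.60 to -0.36 in knockout. Endothelial markers were higher in 7 of 7 (Slco1a4 0.28, Emcn 0.26). No marker passed the threshold, and the part of these cells in the kinesin values was not tested.

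Kinesins of endosomes and other vesicles had no member past the threshold. Kifc3, a minus-end-directed motor of cell junctions and vesicles, had -0.25, -0.21, -0.38, -0.72 and -0.33 on wild-type arrays 1 to 5 and -0.28, -0.33, -0.19 and -0.29 on knockout arrays 1 to 4. All arrays were below the pool and the groups overlapped, with a difference of 0.11 (SE 0.12, 95% interval -0.17 to 0.38). Kif1c, a kinesin-3 of vesicle traffic, had 0.19, -0.095, -0.20, -0.49 and -0.20 on wild-type arrays 1 to 5 and -0.12, -0.060, 0.010 and -0.066 on knockout arrays 1 to 4. Its groups overlapped too, and the difference was 0.10 (SE 0.135, 95% interval -0.21 to 0.41). Kif13a, which moves recycling endosomes, differed by -0.042, Kif13b, a carrier of membrane proteins, by -0.17, and Kif16b, a carrier of early endosomes, by -0.071. The median of the 5 was -0.042.

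Among the cilium kinesins Kif7 had the smallest p. Kif7 sits at the tip of the primary cilium, where it organises the Gli factors of the Hedgehog pathway. It had 0.15, 0.46, 1.04, 0.090 and 0.47 on wild-type arrays 1 to 5 and -0.099, -0.087, 0.15 and -0.10 on knockout arrays 1 to 4. Wild-type arrays spread from 0.090 to 1.04, and 3 of 4 knockout arrays lay just under 0 with knockout 3 above them, so the groups overlapped on that array alone. The wild-type mean was 0.44 ± 0.38 (SD, n = 5) (limma adjusted p = 0.0379) and the knockout mean -0.035 ± 0.12 (SD, n = 4). The difference of -0.48 (SE 0.194, 95% interval -0.92 to -0.034) had an unadjusted p = 0.0379 and limma adjusted p = 0.917. Its features differed by -0.53 and -0.43, the latter with 3 exact zeros. Kif7 is also on chromosome 7 but far from Pycard, with 614 measured genes between them.

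Kif24, a motor at the centriole that holds back the growth of cilia, had 0.30, 0.43, 0.23, 0.95 and 0.52 on wild-type arrays 1 to 5 and 0.35, 0.42, -0.0020 and 0.24 on knockout arrays 1 to 4. Wild-type 4 was highest and knockout 3 lowest, the groups overlapped, and the difference was -0.24 (SE 0.166, 95% interval -0.62 to 0.14). Kif27, a close relative of Kif7 that acts in motile cilia, differed by -0.11. Kif6 and Kif9, both found in motile cilia, differed by 0.19 and 0.56, the latter -0.17 with array weights. Kif9 was below the pool on all 9 arrays, from -2.37 on wild-type 4 to -0.29 on wild-type 2, and its wild-type mean was -1.25 ± 0.90 (SD, n = 5) (limma adjusted p = 0.0148). Of 13 motile cilia markers 9 were higher in knockout and 4 lower (Dnaic1 0.25, Hydin -0.49). Their list means ran from -0.90 on wild-type 3 to 0.018 in wild-type and from -0.46 to -0.089 in knockout. The mean on wild-type 3 includes Rsph4a at -7.12. Hydin was at -1.77 on knockout 4 and at 0.40, 0.11 and 0.43 on knockout 1 to 3. Choroid plexus is a tissue with many motile cilia. Its markers had list means from -2.04 to 0.71 in wild-type and from -2.26 to 0.24 in knockout. All 7 had lower means in knockout (Otx2 -0.52, Clic6 -0.18). Within numbered pairs 1 to 4, however, the list mean differed by -1.76, -2.77, 2.05 and 1.98. Of the 7, Otx2 alone had a wild-type mean above the pool. Wild-type 3 and 4 were the lowest wild-type arrays for both lists and for Kif9, and the part of these tissues in its values was not tested.

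The remaining 2 genes have mixed roles. Kif2a, a microtubule depolymerase used both at spindle poles and in the pruning of axon branches, had -0.19, -0.066, -0.21, 0.59 and 0.57 on wild-type arrays 1 to 5 and -0.25, -0.20, -0.34 and 0.35 on knockout arrays 1 to 4. The 3 number-titled arrays were above all 6 letter-titled ones, whatever the genotype, and the difference was -0.25 (SE 0.236, 95% interval -0.79 to 0.29). Kif12, best known from kidney, had 1.60, 1.68, 3.93, 1.44 and -0.30 on wild-type arrays 1 to 5 and 2.43, 1.92, 3.27 and 0.41 on knockout arrays 1 to 4. Wild-type 3 and knockout 3 were the highest and wild-type 5 and knockout 4 the lowest, so the spread within each genotype far exceeded the difference of 0.34 (SE 0.847, 95% interval -1.60 to 2.27). Its wild-type mean of 1.67 ± 1.50 (SD, n = 5) did not pass against the pool (limma adjusted p = 0.0633).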

How the data were processed

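The deposited table holds log2 ratios of sample (Cy5) over reference pool (Cy3), made by the authors with Agilent Feature Extraction per the submitters' processing notes. The sources used here name no version, background correction, dye normalization or filter. The direction follows the dyes per the labels. The base is not stated in the sources used here and was taken as log2. On each array 20 to 280 values exceed 4.82, which is the limit of log10 ratios of scanner signals. That count bears on log10 alone and does not tell log2 from other bases, and the folds over the pool rest on this choice. No intensities come with the ratios, so dim or saturated spots were not separated, and the number of arrays limits the precision. Medians of single arrays were 0 to 0.013, with SDs over features of 0.55 to 1.12.

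Features of 1 symbol (33653, by the platform annotation) were averaged per gene, and the features of several symbols (56) or none (11511) were kept singly, which gave 30654 values. Of the 36 kinesins 29 have more than 1 feature, and in 14 of these the features differ in the sign of the difference. Groups were compared by two-sided tests of limma 3.58.1 (lmFit, then eBayes, under R 4.3.3) with no covariate on the 9 arrays. The p-values were adjusted by Benjamini-Hochberg over all 30654 values, at a threshold of 0.05. The same fit gave each group's mean against the pool, called at a size of at least 1 as well. The fit was tested on simulated data.

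Members, classes and lists were chosen with earlier results of these data known, so no p is given over a list. Every member is named. Values on every array are given for Pycard, all mitotic members, the 6 transport members and the 2 of each other class with the smallest unadjusted p, and of each other list the 2 such genes are named. Mki67, Gdpd3, Slx1b, Aqp4, Gfap, Slc1a2 and Rsph4a were added beyond this rule. So were the arrays' values of Cenpe and Dctn5, and those of Hydin on the knockout arrays. For same-numbered samples the deviations from their group's mean had correlations of 0.24, 0.25, 0.45 and 0.30. Differently numbered samples ranged from -0.29 (wild-type 3 with knockout 4) to 0.29 (wild-type 5 with knockout 4, both number-titled). Wild-type 1 with knockout 2 had 0.26, so same-numbered samples were not always the most alike. The numbers were taken as a possible pairing only, which the labels do not explain. Other settings tried were blocks on replicate number and title style, arrays of 1 style, leaving out single arrays, quantile normalization, median centring, single features, exact zeros as missing, array weights, a trended robust prior, named genes alone, other thresholds and other members of the classes. Promoter sequences are from RefSeq, build GRCm38.p6, and the gene order along chromosome 7 from the RefSeq table of that assembly.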

Additional observations from a re-analysis of the deposited data

Results flagged for a closer look

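In 8 of 78 groups examined, 1 array lay far from the rest of its group by Dixon's criterion, which chance alone meets in about 1 of 20 groups. Knockout 1 was far below the other knockout arrays for Kif18b (0.91) and Kif20b (0.018). Knockout 3 was far above them for Kif7 (0.15) and Kif27 (0.35), and knockout 4 far below for Kif3b (-0.35). Wild-type 4 was far below the other wild-type arrays for Kif16b (-0.20) and for the mean of the axonal and dendritic transport kinesins (-0.53), and wild-type 5 for Kif2b (-1.83).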

How the results depend on the processing

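No kinesin passed between the genotypes under any of the settings tried, the smallest adjusted p being 0.206. The mitotic class had 11 or 12 members lower in knockout in each setting, and the transport class 4 to 8. The mitotic median ranged from -1.32 to -0.69 with 1 array left out, the transport median from -0.020 to 0.055, and the difference in the gap between the classes from -1.13 to -0.58. Of 720 values of single members under other settings, 687 kept their direction, and 24 of 36 members kept it in all of them. The number of values past the threshold over all genes was 5, and it was 0 with the replicate block, within letter-titled arrays and within number-titled arrays, 3 after quantile normalization and with named genes alone, and 1 to 6 with 1 array left out (3 or fewer for each array but wild-type 3). Kinesins higher than the pool numbered 10 in wild-type and 8 in knockout, 0 and 0 within number-titled arrays, where knockout 4 is the only knockout array and is assumed to vary like the wild-type ones, and 10 to 12 and 7 to 9 with 1 array left out. Kinesins lower than the pool in wild-type numbered 2, 1 with array weights, the replicate block and within letter-titled arrays, 0 within number-titled arrays, 7 with no minimum mean, and 1 to 2 with 1 array left out, 1 being without wild-type 4. In knockout this number was 0, 1 by single features and 3 with no minimum mean.

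These members changed direction, all at differences that did not pass. With the replicate block Kif12 was at -0.16 and Kif2b at -0.15, and the block changed no call of a kinesin between the genotypes. With array weights Kif13a was at 0.14, Kif1c at -0.011, Kif3b at 0.10, Kif9 at -0.17 and Kifc3 at -0.038. Quantile normalization put Kif1a at -0.080, Kif3a at -0.049 and Kifc3 at -0.0069. Within letter-titled arrays Kif1a was at -0.018, Kif1c at -0.019, Kif2b at -0.069, Kif3b at 0.052 and Kif5a at -0.022, and within number-titled arrays Kif12 at -0.16, Kif16b at 0.093 and Kif3a at -0.043. Single features put Kif5c at 0.011. With 1 array left out, Kif12 ranged from -0.16 to 0.90, Kif13a from -0.11 to 0.037, Kif1a from -0.025 to 0.065, Kif2b from -0.15 to 0.51, Kif3a from -0.020 to 0.051, Kif3b from -0.037 to 0.066, Kif5a from -0.015 to 0.12 and Kif5c from -0.19 to 0.067. The cause was not tested.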

Other observations

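Features of 1 kinesin gene differed in how they followed the titles of the arrays. In 16 of the 78 kinesin features the 3 number-titled arrays lay all above (7) or all below (9) the 6 letter-titled ones, whatever the genotype, beside 9.21% and 10.7% of all 45220 features, so the kinesin counts were close to the background. Kif11 feature 28574 had 0.46, 0.58, 0.50, 2.46 and 2.80 on wild-type arrays 1 to 5 and -0.93, 0.54, -0.27 and 1.41 on knockout arrays 1 to 4, whereas its feature 30387 had 3.03, 3.47, 3.26, 4.42 and 4.01 and 0.98, 2.62, 3.17 and 0.66. Knockout 4 was thus the highest knockout array by the former and the lowest by the latter. Kif20b feature 35136 had 1.19, 1.57, 0.89, 4.04 and 3.91 and -0.49, 1.14, 1.03 and 1.73, with number-titled arrays highest, and Kif21a feature 31852 had -0.23, 0.11, -0.15, -2.44 and -1.48 and 0.47, 0.24, 0.23 and -1.51, with number-titled arrays lowest, although its feature 23612 was higher on all number-titled arrays. As genes, Kif2a and Kif5b were higher and Kif12, Kif21a and Kif5c lower on all number-titled arrays, 2 and 3 of 36 genes, beside 7.79% and 11.4% of all 30654 values. They were picked with their values known.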
